A study of Homo sapiens with 4 samples.

Results

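Integrins and cadherins are the main families of transmembrane receptors by which cells hold to the matrix and to each other. The 46 genes described here are all rows of a 28285-row expression table whose symbol names an integrin alpha subunit, an integrin beta subunit or a numbered cadherin, with ITGA2B, ITGB3 and CDH5 left out. They comprise 17 alpha subunits, 7 beta subunits and 22 cadherins. The rule uses names alone, though it was set with earlier results of these data known.

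The cells derived from H1, a widely used line of human embryonic stem cells, in which eGFP, a green fluorescent protein, was knocked into GATA2, a transcription factor gene of blood progenitors. GFP-positive cells were sorted as eGFP+CD34+CD31+CD43- and labelled hemogenic endothelium, the endothelium that gives rise to blood. GFP-negative cells were sorted as eGFP-CD34+CD31+CD43- and labelled endothelial cells, although their source names say hemogenic endothelium and their titles HE. Both fractions share the knockin genotype, and all titles name Cre without giving its role. Each fraction had 2 libraries. Whether a single clone was used, how long the cells were differentiated and whether replicates were separate cultures is not given in the sources used here. The p-values therefore reflect the spread of these libraries alone, which may be technical.

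Levels are given in TPM, the abundance of a gene's transcripts per length of the gene and relative to the whole library. Read depth is unknown, since TPM keeps none, and levels of a few TPM may rest on few reads. GATA2, the reporter's own locus, had 302 and 385 TPM in GFP-positive libraries and 80.2 and 87.3 TPM in GFP-negative libraries. All 14 measured endothelial markers, the sorted CD34 among them, had lower TPM in both GFP-positive libraries than in both GFP-negative ones. Of all genes tested, 21.5% were lower in this way. None of the 14 was listed at 0 in all 4 libraries, and PECAM1, the gene of the sorted CD31, had no row. The 14 summed to 4183 and 4432 TPM in GFP-positive libraries against 7817 and 7078 TPM in GFP-negative libraries. Summed erythroid markers stood at 563 and 386 TPM in GFP-positive libraries and 89.0 and 81.8 TPM in GFP-negative libraries, with AHSP listed at 0 in all 4. Summed platelet markers stood at 326 and 389 TPM in GFP-positive libraries and 208 and 216 TPM in GFP-negative libraries. PPBP was listed at 0 throughout. The left-out genes ITGA2B and ITGB3 are part of the platelet sum, and CDH5 is part of the endothelial one. In both GFP-positive libraries 9 of 11 tested erythroid markers were higher and 0 lower. Among 11 tested platelet markers, 8 were higher and 0 lower, against 22.8% and 21.5% of all genes tested. Summed leukocyte markers stood at 614 and 653 TPM in GFP-positive libraries against 560.0 and 519.8 TPM in GFP-negative libraries, most of it from LAPTM5. Of the 12 tested leukocyte markers, 4 were higher and 2 lower in both GFP-positive libraries, against 22.8% and 21.5% of all genes tested. PTPRC, the pan-leukocyte marker CD45, reached at most 2.64 TPM. The part of these cell types in the results that follow was not tested, and in such bulk samples fewer cells of a type and less RNA per cell cannot be told apart.

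An integrin is a heterodimer of an alpha and a beta subunit, and the pair decides which ligand is bound. The beta1 subunit joins the most alpha partners and links matrix to actin through talin and kindlin. Classical cadherins bind their like on the next cell and hold the cytoskeleton through catenins. VE-cadherin, from the left-out gene CDH5, is the main one of endothelial junctions, beside which endothelium is known for N-cadherin (CDH2) and T-cadherin (CDH13).

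Promoter sequences are shown for the members with an unadjusted p under 0.05 whose promoter was in the table used. ITGB1, the most abundant member, is shown for comparison. Each is the 250 bases before the RefSeq start on GRCh38.p14, printed on the gene's own strand from 5′ to 3′. All 4 genes lie on the minus strand: ITGA5 at chr12:54419267-54419516, ITGA8 at chr10:15719923-15720172, CDH2 at chr18:28177131-28177380 and ITGB1 at chr10:32958231-32958480. Capitals mark GATAA (the core bound by GATA factors), GGAAG (a core bound by ETS factors) and GGGCGG (a core bound by SP factors) on either strand, overlapping copies included. All 4 windows lie wholly or partly inside the gene bounds of GENCODE v29.
ITGA5: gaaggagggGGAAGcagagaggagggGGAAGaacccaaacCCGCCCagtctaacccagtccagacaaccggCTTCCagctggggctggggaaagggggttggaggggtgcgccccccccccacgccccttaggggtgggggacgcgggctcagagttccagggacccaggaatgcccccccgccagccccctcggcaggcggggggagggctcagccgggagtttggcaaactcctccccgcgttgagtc
ITGA8: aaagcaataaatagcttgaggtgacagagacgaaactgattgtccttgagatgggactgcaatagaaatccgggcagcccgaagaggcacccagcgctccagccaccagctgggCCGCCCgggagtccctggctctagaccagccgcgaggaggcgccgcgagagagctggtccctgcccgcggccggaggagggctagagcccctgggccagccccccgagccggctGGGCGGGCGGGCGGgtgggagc
CDH2: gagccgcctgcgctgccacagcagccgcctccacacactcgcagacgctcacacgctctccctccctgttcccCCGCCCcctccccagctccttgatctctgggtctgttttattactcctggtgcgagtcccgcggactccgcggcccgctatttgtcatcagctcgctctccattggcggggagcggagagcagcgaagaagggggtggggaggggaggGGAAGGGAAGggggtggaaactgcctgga
ITGB1: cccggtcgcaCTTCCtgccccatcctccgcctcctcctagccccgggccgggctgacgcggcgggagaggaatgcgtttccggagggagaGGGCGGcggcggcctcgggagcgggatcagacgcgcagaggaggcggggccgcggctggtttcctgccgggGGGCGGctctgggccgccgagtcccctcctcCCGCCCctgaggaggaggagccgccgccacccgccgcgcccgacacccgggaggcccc

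No printed window held GATAA. The core GGAAG occurred 3 times before ITGA5, 0 times before ITGA8, 2 times before CDH2 and 1 time before ITGB1. The core GGGCGG occurred 1 time before ITGA5, 4 times before ITGA8, 1 time before CDH2 and 3 times before ITGB1. Promoters were found for 28 of the 46 members, among them 20 of those tested for expression. Of these 20, GATAA was in 1 (5.0%, CDH26) against 20.4% of all 35116 promoters, GGAAG in 15 (75.0%) against 65.1%, and GGGCGG in 11 (55.0%) against 42.6%. The printed windows had a GC content of 66.0% (CDH2) to 78.4% (ITGB1), and the median of all promoters was 58.0%. A match describes letters only, and its absence says nothing of a factor's binding elsewhere.

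The comparison asked which adhesion receptors differ between cells with and without the GATA2 reporter. The most abundant alpha subunit genes were ITGA5 and ITGA3. ITGA5, the fibronectin receptor subunit, had a mean of 226 ± 4.04 TPM among GFP-positive libraries against 387 ± 72.0 TPM among GFP-negative ones (SD, n = 2 each). ITGA3, a laminin receptor subunit, had a mean of 237 ± 47.6 TPM among GFP-positive libraries against 147 ± 15.3 TPM among GFP-negative ones. CDH13 had a mean of 65.1 ± 14.1 TPM among GFP-positive libraries against 181 ± 23.7 TPM among GFP-negative ones. ITGB1, the beta subunit that both alpha subunits join, had a mean of 1047 ± 51.5 TPM among GFP-positive libraries against 1048 ± 189 TPM among GFP-negative ones. None of these differences passed adjustment over all genes. Limma, a linear model that pools variance across genes, was fitted to log2(TPM + 1) for the 15425 genes that reached 1 TPM in 2 or more of the 4 libraries, and 34 of the 46 members met that filter. Limma called 0 of the 34 at a Benjamini-Hochberg adjusted p under 0.05, against 0.447% of all genes tested, and the smallest adjusted p of a member was 0.058. At an unadjusted p under 0.05 there were 7 of 34 (20.6%), against 14.1% of all genes tested. Of these 7, ITGA3 was higher in GFP-positive cells (1 member, against 6.69% of all genes) and 6 were lower (against 7.38% of all genes): ITGA5, ITGA8, ITGA9, ITGAD, CDH2 and CDH13.

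In 16 of the 34 tested members (47.1%) the GFP-positive libraries did not overlap the GFP-negative libraries, against 44.3% of all genes tested. The GFP-positive libraries were the higher in 4 (11.8%, against 22.8% of all genes) and the lower in 12 (35.3%, against 21.5%). The log2 fold change was below 0 in 20 of 34, against 48.2% of all genes, with a median of -0.17 beside 0.02 for all genes tested. Of the 12 members that missed the filter, 3 were listed at 0 in all libraries (CDH9, CDH16 and CDH19). The highest single value among the other 9 was 4.95 TPM, for CDH7. Without knowledge of strand in the counting, reads of a gene and its antisense partner cannot be told apart. In GENCODE v29, exons of 20 members overlap a gene on the other strand, among them ITGB1, ITGA5, ITGA6, ITGA9, ITGA10, ITGAE, ITGAV, CDH2 and CDH13. For ITGA7, ITGAE, ITGB7 and CDH23 a protein-coding gene is among these overlaps. On its own strand, ITGA1 overlaps exons of the protein-coding gene PELO.

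**Figure D1:**
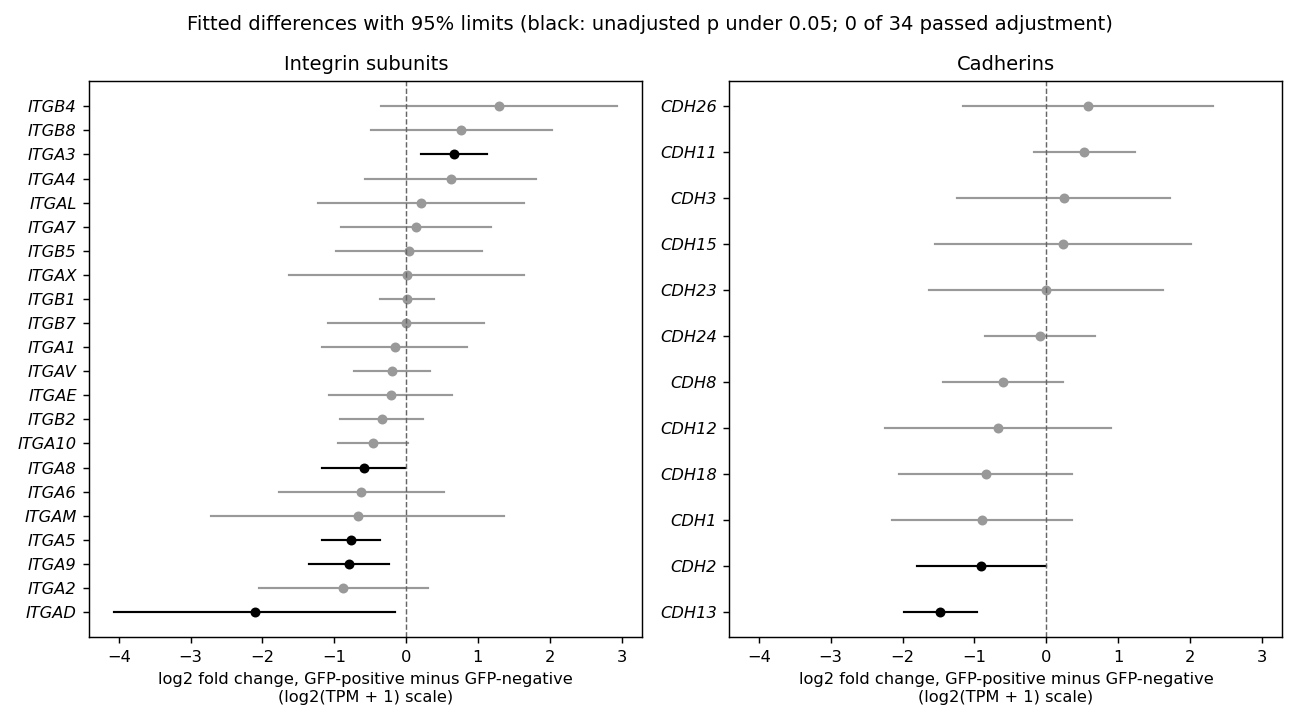
Log2 fold change, GFP-positive minus GFP-negative, of the 34 tested members on the log2(TPM + 1) scale; points are limma estimates, lines their 95% limits, and black marks an unadjusted p under 0.05. CDH13 at -1.47 has limits of -1.99 to -0.96, and those of ITGAD and ITGB4, genes of a few TPM, are wider.

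Among the RGD-binding alpha subunits, ITGA5 had 228 and 223 TPM in GFP-positive libraries and 438 and 337 TPM in GFP-negative libraries. The libraries did not overlap, and the log2 fold change was -0.77 ± 0.17 (SE), with an adjusted p of 0.126 from limma. The gene lies on chromosome 12 of GRCh38, from 54395261 to 54419460 on the minus strand in GENCODE v29. ITGA8, which binds nephronectin and fibronectin, had 24.9 and 22.7 TPM in GFP-positive libraries against 38.1 and 34.6 TPM in GFP-negative libraries (-0.59 ± 0.24; limma adjusted p = 0.342). ITGAV, which pairs with several beta subunits to bind vitronectin and latent TGF-beta, overlapped, at 52.5 and 66.4 TPM in GFP-positive libraries and 61.3 and 74.8 TPM in GFP-negative libraries. Its log2 fold change was -0.19, with 95% limits of -0.72 to 0.33. Fibronectin itself, from FN1 and named after its values were seen, had 293 and 227 TPM in GFP-positive libraries against 588 and 603 TPM in GFP-negative libraries (log2 fold change -1.21 ± 0.16; limma adjusted p = 0.0519).

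Of the laminin-binding alpha subunits, ITGA3 had 203 and 270.4 TPM in GFP-positive libraries and 136 and 158 TPM in GFP-negative libraries. The higher library of GFP-negative cells stayed below the lower one of GFP-positive cells, and the log2 fold change was 0.67 ± 0.19 (SE), with an adjusted p of 0.204 from limma. ITGA3 lies on chromosome 17 of GRCh38, from 50055968 to 50090481 on the plus strand in GENCODE v29. ITGA6, which pairs with beta1 or beta4, overlapped widely, at 24.1 and 56.1 TPM in GFP-positive libraries against 41.3 and 79.2 TPM in GFP-negative libraries. In each fraction replicate 2 was the higher library for ITGA6, and its limits of -1.78 to 0.53 allow a difference in either direction. ITGA7, a laminin receptor subunit of muscle, had 12.8 and 11.1 TPM in GFP-positive libraries and 15.1 and 7.53 TPM in GFP-negative libraries.

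The collagen-binding subunits all had log2 fold changes below 0, from -0.87 to -0.16 over the 3 tested, and none passed. ITGA10, best known from cartilage, was the most abundant of them, with 49.2 and 62.3 TPM in GFP-positive libraries and 79.3 and 73.7 TPM in GFP-negative libraries (-0.46 ± 0.20, SE; limma adjusted p = 0.385). ITGA2, the collagen receptor subunit of platelets, had 1.35 and 1.96 TPM in GFP-positive libraries and 3.63 and 4.04 TPM in GFP-negative libraries, without overlap. ITGA1, of a collagen IV receptor, had 8.94 and 9.39 TPM in GFP-positive libraries, between the 7.68 and 13.8 TPM of GFP-negative libraries, and ITGA11 did not meet the filter.

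The related subunits ITGA4 and ITGA9 differed from each other in sign. ITGA9, a receptor subunit for tenascin and other ligands that is needed for lymphatic valves in mice, had 63.3 and 47.9 TPM in GFP-positive libraries and 109 and 84.6 TPM in GFP-negative libraries (-0.79 ± 0.23, SE; limma adjusted p = 0.211). ITGA4, the homing receptor subunit of blood progenitors that binds VCAM1, had 7.51 and 16.1 TPM in GFP-positive libraries and 5.48 and 8.48 TPM in GFP-negative libraries, which overlapped. VCAM1 was listed at 0 in all 4 libraries.

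**Figure D2:**
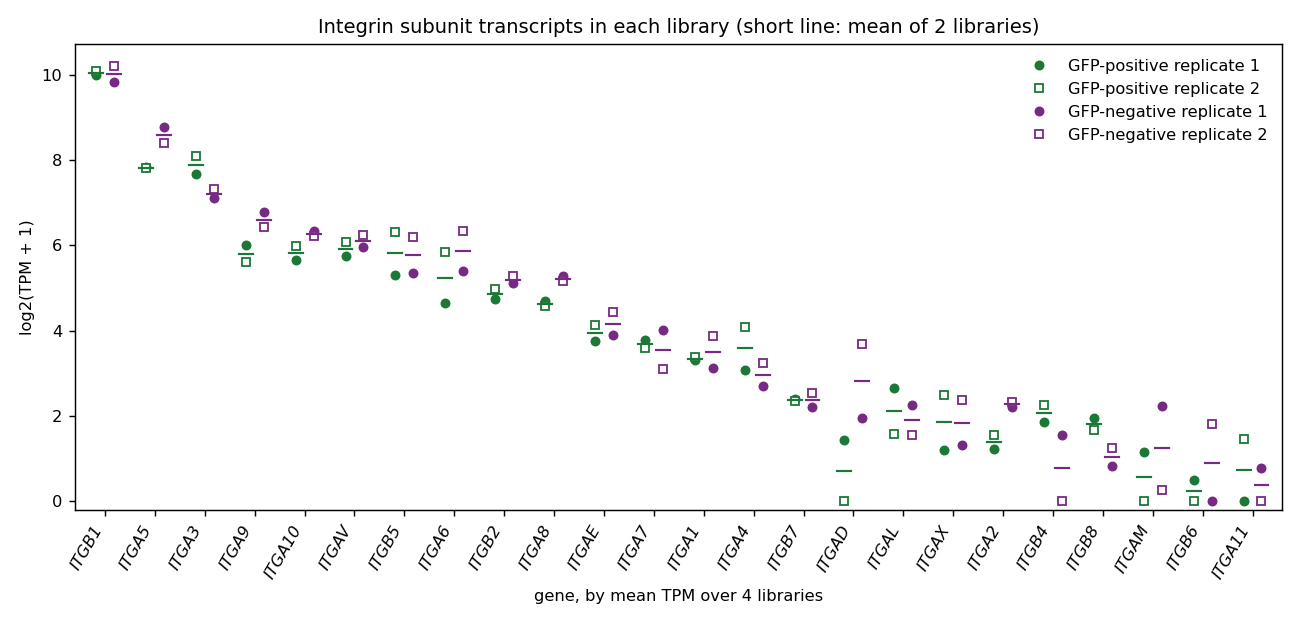
Expression of the 24 integrin genes as log2(TPM + 1), ordered by mean TPM; filled circles are replicate 1, open squares replicate 2, and short lines the mean of the 2 libraries of a fraction. ITGB1 stands above all others in both fractions, and the GFP-positive libraries lie below the GFP-negative ones for ITGA5 and above them for ITGA3.

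Beta subunits were dominated by ITGB1, with 1010.3 and 1083 TPM in GFP-positive libraries and 914 and 1182 TPM in GFP-negative libraries. The GFP-positive libraries lay between the GFP-negative ones, and the log2 fold change of 0.01 had 95% limits of -0.37 to 0.39. ITGB5, a partner of ITGAV, had 38.9 and 78.4 TPM in GFP-positive libraries against 39.7 and 72.1 TPM in GFP-negative libraries, so that the replicates differed more than the fractions. ITGB4, the hemidesmosome subunit that pairs with ITGA6, had 2.63 and 3.83 TPM in GFP-positive libraries and 1.92 and 0 TPM in GFP-negative libraries. The libraries did not overlap, but the fitted value of 1.29 ± 0.68 (SE; limma adjusted p = 0.461) rests on a library listed at 0. ITGB8, another partner of ITGAV, had 2.86 and 2.20 TPM in GFP-positive libraries and 0.78 and 1.40 TPM in GFP-negative libraries (limma adjusted p = 0.581).

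The leukocyte integrins did not form a set of higher genes in GFP-positive cells. Of their 5 alpha subunits, 2 had log2 fold changes above 0 and 3 below. ITGB2, the shared beta subunit of leukocytes, had 25.7 and 30.4 TPM in GFP-positive libraries and 33.6 and 37.8 TPM in GFP-negative libraries, which did not overlap (limma adjusted p = 0.598). ITGAE, the subunit of intraepithelial T cells, pairs with ITGB7 and was the most abundant of the 5, at 12.6 and 16.4 TPM in GFP-positive libraries and 13.8 and 20.6 TPM in GFP-negative libraries. ITGAD, a subunit of tissue macrophages, had 1.70 and 0 TPM in GFP-positive libraries and 2.88 and 11.9 TPM in GFP-negative libraries. The fitted value of -2.11 ± 0.80 on the log2 scale (SE; limma adjusted p = 0.324) rests on values that differed several fold within a fraction. It was -1.24 without GFP-negative replicate 2, -1.39 without GFP-positive replicate 2, and -3.82 with a pseudocount of 0.1. ITGAL, ITGAM and ITGAX, of LFA-1, Mac-1 and CD11c, reached at most 5.27 TPM in any library, and their libraries overlapped. ITGB7, which joins ITGA4 or ITGAE, had 4.28 and 4.13 TPM in GFP-positive libraries, inside the 3.65 and 4.82 TPM of GFP-negative libraries.

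The balance of ITGA3 and ITGA5 was also read within libraries, a pair chosen after its values were seen. The ratio of ITGA3 to ITGA5 TPM was 0.889 and 1.21 in GFP-positive libraries against 0.311 and 0.469 in GFP-negative libraries. An exact two-sided permutation test over libraries gave p = 0.333, the smallest that 2 against 2 allows. As ITGA3 was the higher and ITGA5 the lower in both GFP-positive libraries, this outcome was fixed by the choice of pair. Among 12 alpha subunits that can pair with ITGB1, ITGA3 held 30.0% and 34.3% of their summed TPM in GFP-positive libraries and 14.6% and 18.0% in GFP-negative libraries. ITGA5 held 33.8% and 28.2% in GFP-positive libraries and 46.8% and 38.5% in GFP-negative libraries. Together both genes made up most of the alpha pool in every library, with ITGA5 well ahead in both GFP-negative libraries and no constant order in GFP-positive ones. The 12 summed to 676 and 789 TPM in GFP-positive libraries and 936 and 875 TPM in GFP-negative libraries, which is 0.669 and 0.728 of the ITGB1 level in GFP-positive libraries and 1.02 and 0.740 of it in GFP-negative libraries. ITGAV also pairs with other beta subunits, so the pool is not one of beta1 integrins alone.

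Among cadherins, CDH11 and CDH13 led, and their order differed between fractions. Both are on chromosome 16 of GRCh38 in GENCODE v29, CDH11 from 64943753 to 65126112 on the minus strand and CDH13 from 82626803 to 83800640 on the plus strand. CDH13, T-cadherin, a membrane-anchored adiponectin receptor of endothelium that lacks the usual cytoplasmic tail, had 55.2 and 75.1 TPM in GFP-positive libraries and 164 and 198 TPM in GFP-negative libraries. The gap between the fractions exceeded the spread within each, and the log2 fold change of -1.47 ± 0.21 (SE, 95% limits -1.99 to -0.96) had a limma adjusted p of 0.058, just above the threshold. Without GFP-positive replicate 2 limma gave an adjusted p of 0.0485, and over all alternatives it ran between 0.00171 and 0.184. CDH11, a type II cadherin of mesenchyme, had 195 and 201 TPM in GFP-positive libraries and 100.2 and 185 TPM in GFP-negative libraries. All GFP-positive values were the higher, but GFP-negative replicate 2 came close to them, and the log2 fold change of 0.53 ± 0.29 (SE), at an adjusted p of 0.474 from limma, became 0.093 once GFP-negative replicate 1 was left out, or 0.97 with GFP-negative replicate 2 left out. The ratio of CDH11 to CDH13 TPM was 3.53 and 2.67 in GFP-positive libraries and 0.610 and 0.936 in GFP-negative libraries (exact permutation p = 0.333, two-sided, the smallest possible). The pair was chosen after its values were seen. As CDH11 was the higher and CDH13 the lower in both GFP-positive libraries, that p was fixed by the choice.

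Beside CDH11, mesenchymal markers summed to 1955 and 1883 TPM in GFP-positive libraries and 1485 and 1559 TPM in GFP-negative libraries. Of the 10, 3 were higher in both GFP-positive libraries (against 22.8% of all genes tested), 1 was lower (against 21.5%) and 6 overlapped. COL1A1, of type I collagen, had 385 and 528 TPM in GFP-positive libraries against 149 and 268 TPM in GFP-negative libraries, whereas THY1 had 284 and 162 TPM in GFP-positive libraries against 571 and 419 TPM in GFP-negative ones. None of the 10 passed limma's adjustment or was listed at 0 in all libraries. PDGFRA, a defining receptor of mesenchyme, reached at most 6.9 TPM. The part of mesenchymal cells in the CDH11 values was not tested.

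**Figure D3:**
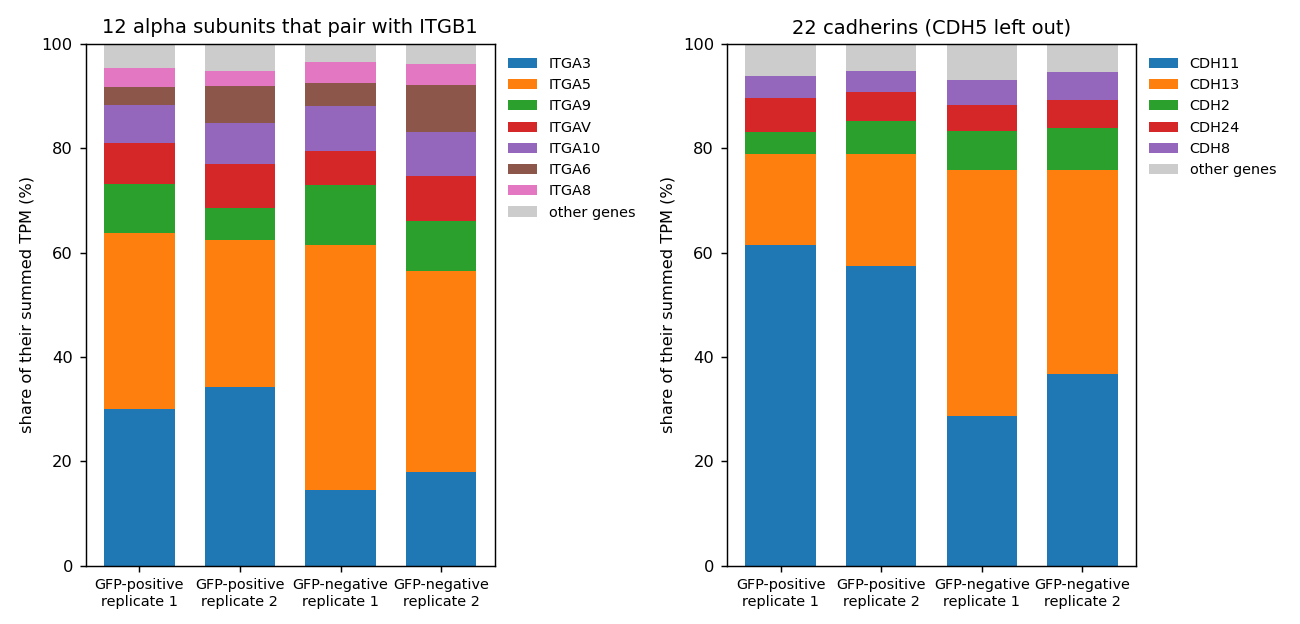
Share of summed TPM in each library, in percent: left, 12 alpha subunits that pair with ITGB1; right, the 22 cadherins. ITGA3 takes 30.0% and 34.3% in GFP-positive libraries against 14.6% and 18.0% in GFP-negative ones, and CDH13 takes 17.4% and 21.5% against 47.1% and 39.2%.

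CDH2, N-cadherin, was the most abundant type I cadherin, with 13.2 and 22.1 TPM in GFP-positive libraries and 26.3 and 41.0 TPM in GFP-negative libraries (-0.90 ± 0.37, SE; limma adjusted p = 0.351). Its libraries did not overlap, though the gap was smaller than the spread within either fraction. CDH1, E-cadherin of epithelia and pluripotent cells, had 1.92 and 1.38 TPM in GFP-positive libraries and 5.15 and 2.91 TPM in GFP-negative libraries. Epithelial markers went the other way in sum, at 1734 and 1488 TPM in GFP-positive libraries and 883 and 1074 TPM in GFP-negative libraries. Most of it came from the keratins KRT8 and KRT18, and none of the 7 tested genes passed. In both GFP-positive libraries 4 of the 7 were higher and 0 lower, against 22.8% and 21.5% of all genes tested. Of 6 tested pluripotency markers none passed either, with 3 higher and 1 lower in both GFP-positive libraries, against 22.8% and 21.5% of all genes tested. The lower one was POU5F1, the pluripotency factor OCT4, with 0.93 and 0.03 TPM in GFP-positive libraries and 9.68 and 5.88 TPM in GFP-negative libraries (limma adjusted p = 0.131). The part of either cell type in the CDH1 values was not tested. CDH3, P-cadherin, and CDH15, M-cadherin of muscle, reached at most 2.87 TPM, and CDH4 did not meet the filter.

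Of the 12 type II cadherins 5 were tested, and 7 did not meet the filter. After CDH11 the highest were CDH24 and CDH8. CDH24 overlapped, with 20.7 and 19.4 TPM in GFP-positive libraries and 17.3 and 26.4 TPM in GFP-negative libraries. CDH8, best known from neurons, had 13.4 and 14.1 TPM in GFP-positive libraries and 16.8 and 27.1 TPM in GFP-negative libraries, without overlap (limma adjusted p = 0.502). CDH18 had 2.21 and 4.98 TPM in GFP-positive libraries against 7.24 and 6.51 TPM in GFP-negative libraries. Among the atypical cadherins other than CDH13, CDH26 ranged from 2.54 to 7.48 TPM in GFP-positive libraries and from 1.21 to 5.05 TPM in GFP-negative libraries. Neither fraction's values were separate from the other's for CDH26, nor for CDH23, a cadherin of inner ear hair cells.

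**Figure D4:**
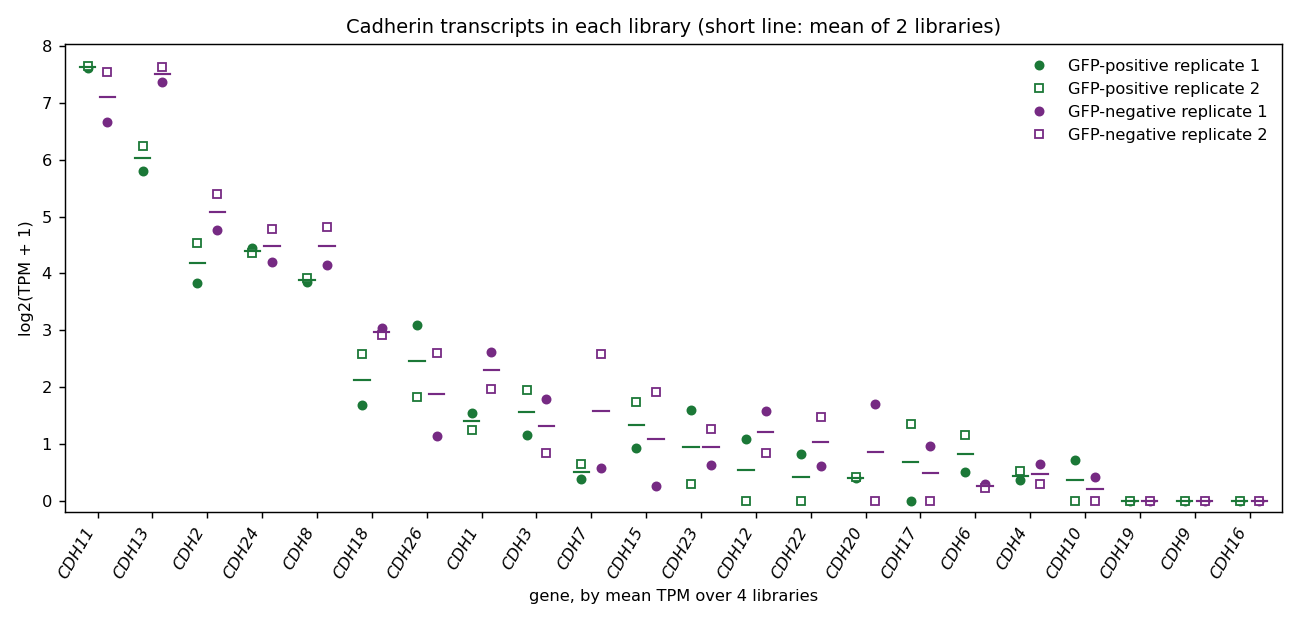
Expression of the 22 cadherin genes as log2(TPM + 1), ordered by mean TPM; filled circles are replicate 1, open squares replicate 2, and short lines the mean of the 2 libraries of a fraction. CDH13 lies lower in both GFP-positive libraries, CDH11 is the highest cadherin there, and genes to the right of CDH26 reach at most 5.15 TPM.

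Partners of both families were described from 4 lists, whose values are read beside the same shares and median of all genes as the members, an adjusted call in 0.447%, an unadjusted p under 0.05 in 14.1% and a median of 0.02. Of 31 tested adaptors and activators of integrin adhesions, 0 passed limma's adjustment in either direction, and 7 had an unadjusted p under 0.05, 3 higher and 4 lower in GFP-positive cells. Their median log2 fold change was 0.08. VCL, vinculin, which ties adhesions to actin, had 198 and 217 TPM in GFP-positive libraries and 128 and 139 TPM in GFP-negative libraries (0.63 ± 0.15, SE; limma adjusted p = 0.148). TNS3, a tensin, had 19.6 and 15.5 TPM in GFP-positive libraries and 25.8 and 31.5 TPM in GFP-negative libraries (limma adjusted p = 0.361). The fractions did not overlap for VCL, higher in GFP-positive cells, or for TNS3, lower in them.

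Of 30 tested integrin ligands and counter-receptors, 0 rose, 1 fell and 29 did not pass, with a median log2 fold change of -0.14. An unadjusted p under 0.05 was seen for 16 of the 30. In GFP-positive cells 5 of these were the higher and 11 the lower. The libraries did not overlap for 9 higher and 14 lower genes of the 30, against 22.8% and 21.5% of all genes tested. Those higher included COL18A1, of a basement membrane collagen, named after its values were seen, with 477 and 483 TPM in GFP-positive libraries and 247 and 321 TPM in GFP-negative libraries (0.77 ± 0.16, SE; limma adjusted p = 0.120). The gene that fell was JAM3, a junctional adhesion molecule that binds the leukocyte integrin Mac-1. It had 237 and 215 TPM in GFP-positive libraries and 588 and 490 TPM in GFP-negative libraries (-1.24 ± 0.15, SE; limma adjusted p = 0.0439). The call was lost when limma was fitted without GFP-positive replicate 1 (adjusted p = 0.0542), GFP-positive replicate 2 (0.0763) or GFP-negative replicate 1 (0.128), and its adjusted p ran from 0.00107 to 0.184 over all alternatives. MADCAM1, the mucosal addressin bound by ITGA4 with ITGB7, had 1.48 and 0 TPM in GFP-positive libraries against 24.8 and 17.3 TPM in GFP-negative libraries (limma adjusted p = 0.0645). Its limma adjusted p was 0.193 with a pseudocount of 0.1 and 0.00421 with the replicate number as a block. The log2 fold change of MADCAM1 was -3.79, and ran from -5.71 to -3.13 over all alternatives. TNC, tenascin C and a ligand of ITGA9, had 7.57 and 12.9 TPM in GFP-positive libraries and 34.7 and 38.0 TPM in GFP-negative libraries (-1.77 ± 0.34; limma adjusted p = 0.103). SPP1, osteopontin, had 3.24 and 6.62 TPM in GFP-positive libraries and 19.5 and 48.2 TPM in GFP-negative libraries (limma adjusted p = 0.129). For JAM3, MADCAM1, TNC and SPP1 the GFP-positive libraries lay below both GFP-negative ones.

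Of 19 tested catenins and cadherin tail partners 0 passed limma's adjustment, and 6 had an unadjusted p under 0.05, all of them lower in GFP-positive cells. The log2 fold change was below 0 in 13 of 19, against 48.2% of all genes tested, with a median of -0.38. PTPRM, a receptor phosphatase that associates with cadherins, had 115 and 143 TPM in GFP-positive libraries and 361 and 294 TPM in GFP-negative libraries (-1.34 ± 0.18, SE; limma adjusted p = 0.0541). CTNNBIP1, an inhibitor of beta-catenin, had 37.6 and 42.8 TPM in GFP-positive libraries and 67.1 and 63.7 TPM in GFP-negative libraries (limma adjusted p = 0.207). PTPRB, the phosphatase VE-PTP of endothelial junctions, had 42.5 and 30.1 TPM in GFP-positive libraries and 67.4 and 46.7 TPM in GFP-negative libraries (limma adjusted p = 0.391). Endothelial markers were lower beside these genes, as given above.

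Of 51 tested genes of the wider cadherin superfamily, 0 passed limma's adjustment and 6 had an unadjusted p under 0.05, 1 higher and 5 lower in GFP-positive cells. The log2 fold change was below 0 in 35 of 51, against 48.2% of all genes tested, with a median of -0.25. PCDH12, VE-cadherin-2 of endothelium, had 20.0 and 16.9 TPM in GFP-positive libraries and 63.2 and 50.7 TPM in GFP-negative libraries (-1.57 ± 0.25, SE; limma adjusted p = 0.0674). PCDH1 had 3.14 and 4.22 TPM in GFP-positive libraries and 15.4 and 15.8 TPM in GFP-negative libraries (limma adjusted p = 0.120). CELSR2, a transmembrane cadherin of planar polarity, was on the other side, with 10.4 and 5.76 TPM in GFP-positive libraries and 1.81 and 2.83 TPM in GFP-negative libraries (limma adjusted p = 0.291). The fractions did not overlap for any of these 3.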

How the data were processed

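The authors deposited 1 table per library, with a value taken here as TPM, since its values are not whole and sum to between 996324 and 997293. Bowtie, RSEM and the builds hg19 and mm10 appear in the submitters' processing notes with no version or role. The annotation is not given in the sources used here. Per the labels' protocols, a TruSeq kit was used on 1 ug of total RNA, with no strand setting stated. Groups and replicate numbers came from sample titles.

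Limma 3.58.1 in R 4.3.3 was fitted to log2(TPM + 1) with a variance trend, over genes reaching 1 TPM in 2 or more libraries, two-sided, with Benjamini-Hochberg adjustment over all 15425 genes at a threshold of 0.05. Fold changes on this scale understate those of low genes. The script was tested on simulated data with changes larger than those fitted for most members. That test does not show what would be detected at smaller changes. The members and lists were chosen with earlier results of these data known. By rule, values per library were due for members past the threshold, the 10 of highest mean, the highest of each class, and those without overlap and with an absolute log2 fold change of at least 1. In partner lists they were due for genes past the threshold and up to 3 of largest fold change without overlap and with a mean of at least 5 TPM. Other genes given with their values were named after these were seen. For a repeated symbol, the row paired with it in a gene name table was used. One adaptor gene that the partner rule names is not reported here, and markers were given as sums and counts with a few examples. A Y-linked protocadherin was left out. CDH12 has 4 annotated pseudogenes that may share its reads. Protein motifs were not analysed here. Alternatives were another pseudocount, filters, scalings, no trend, the highest row of a repeated symbol, a replicate block and each library left out.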

Additional observations from a re-analysis of the deposited data

How the results depend on the processing

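In parentheses after each 0 is the count of genes with an unadjusted p under 0.05. Limma called 0 members when 0.1 was the pseudocount (5), 0 when no filter was applied (6) and 0 when the variance had no trend (6). It called 1, CDH13, with a mean above 5 TPM, with upper quartile scaling and with quantile normalization, and 0 to 1 with a library left out. Of the partner lists, in which 1 gene passed, limma called 0 when 0.1 was the pseudocount (35), 0 without a filter (34), 0 without a trend (29), 6 with a mean above 5 TPM, 5 with upper quartile scaling, 4 with quantile normalization and 0 to 2 with a library left out. Of all genes, of which 69 passed, limma called 0 when 0.1 was the pseudocount (2101), 0 without a filter (2230), 0 without a trend (2072), 164 with a mean above 5 TPM, 129 with upper quartile scaling, 107 with quantile normalization, and 18 (without GFP-negative replicate 1) to 65 with a library left out. The cause of these shifts was not tested. Taking the highest row of a repeated symbol left all 3 counts as they were.

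With the replicate number as a block, limma called 3 members (CDH13, ITGA3 and ITGA5), 17 partner genes and 596 genes in all. The libraries share only a number, so this is not a paired design by any label. Over the genes tested, the differences between the replicates of GFP-positive cells and those of GFP-negative cells correlated at only 0.072. Fold changes were followed singly only for members due by the rule above or with an unadjusted p under 0.05. Signs turned for 3 of these, all with small differences: ITGB1, ITGB5 and ITGAE. The log2 fold change of ITGB1 was -0.077 with upper quartile scaling and -0.18 to 0.19 with a library left out. That of ITGB5 was -0.039 with upper quartile scaling and -0.45 to 0.54 with a library left out. That of ITGAE was 0.055 without GFP-negative replicate 2, and otherwise down to -0.49. Signs of other members with small differences, such as CDH24, ITGA1, ITGA7 and ITGB7, were not followed. A fit without a library leaves 1 in its fraction, which is assumed to vary like the others. Depth, which TPM does not keep, limits the members of a few TPM most.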
